A study of Mus musculus with 6 samples.

Results

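The mitochondrial ribosomal protein genes are the nuclear genes, named Mrpl and Mrps with a number, whose proteins build the large and the small subunit of the ribosome inside mitochondria. They were taken from a table of 35999 gene symbols measured in mouse hepatic stellate cell cultures as every symbol of that form with at least 1 TPM (a transcript abundance per length, scaled so that each library has the same total) in at least 2 of 6 libraries, leaving out pseudogenes. This gave 78 genes, 49 with a large subunit symbol and 29 with a small subunit symbol. No such symbol fell short of the threshold once 5 pseudogene symbols were set aside, so all 78 are described.

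The mitochondrial ribosome translates the few messenger RNAs encoded by mitochondrial DNA, which all specify subunits of the respiratory chain and of ATP synthase. Its RNAs come from the mitochondrial genome, while its proteins are made in the cytosol from nuclear genes and imported. Some of these proteins have counterparts in the bacterial ribosome, and others are found only in mitochondria. In the liver, stellate cells store vitamin A in the wall of the sinusoids, and on activation they turn into contractile cells that lay down matrix.

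RNA was taken from primary hepatic stellate cells of mouse liver on day 1 (libraries 2 and 3), day 4 (libraries 1 and 2) and day 7 (libraries 1 and 2), with 2 libraries a day. The labels give no treatment, strain, age or genotype, do not say what event the days were counted from, and do not say whether libraries came from separate cultures or animals, so p-values measure only a spread that may be technical. Depth is unknown, because TPM does not keep it.

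The labelled cell type was checked against marker genes. The summed TPM of 10 stellate markers was 131 to 169 on day 1, 1230 to 1273 on day 4 and 1248 to 1332 on day 7, while that of 12 macrophage markers was 10533 to 13456, 27046 to 27105 and 26101 to 28369. RNA of macrophage markers was therefore far above that of stellate markers on every day, no marker of either list was at 0 in both libraries of a day, and the cultures are described here by their labels only. On day 1 the sums of 8 endothelial markers, 1058 to 1234, and of 5 dendritic cell markers, 1267 to 1268, were also above the stellate sum. On the later days both were below it. The sum of 8 proliferation markers was 169 to 223 on day 1 and 544 to 608 on the later days, and that of 8 hepatocyte markers was 42.8 to 52.6 on day 1 and 1.65 to 5.20 later, with Tat at 0 on days 4 and 7. In bulk RNA, fewer cells of a type and less RNA per cell cannot be told apart. Day 1 also differed in composition: 13 predicted gene models that share sequence with the satellite-like model Gm10800 held 17.4% and 26.2% of all TPM in its libraries, against 0.0594% to 0.0913% in the later 4. A larger share for these models lowers the TPM of every other gene in the same library, so counts over the members and over related lists are given under 3 scalings, and single genes as deposited with another scaling where it bears on the call.

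Every member was detected in every library, and the level differed more between members than between days. Mean TPM over the 6 libraries was at least 100 for 6 members, between 20 and 100 for 64 and under 20 for 8. TPM is a value per transcript length, so levels may be set side by side. In the large subunit, Mrpl33 was the highest, at 232 and 187 TPM on day 1, 262 and 259 on day 4 and 273 and 249 on day 7. Mrpl52 followed, at 222 and 221 TPM, then 157 and 171, then 150 and 150, and then Mrpl20, at 124 and 79.1, then 155 and 151, then 152 and 153. These values put Mrpl33 above Mrpl52 without overlap on days 4 and 7, but on day 1 the libraries of both genes overlapped. Mrpl33 and Mrpl20 have counterparts in the bacterial ribosome, and Mrpl52 does not.

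In the small subunit, Mrps21 stood alone, at 150 and 110 TPM on day 1, 237 and 255 on day 4 and 272 and 251 on day 7. The next was Mrps18c, at 91.8 and 64.2, then 92.2 and 91.5, then 94.9 and 85.7 TPM. Mrps33 was at 66.3 and 39.3, then 88.2 and 80.5, then 81.9 and 81.1 TPM. Mrps21 did not overlap with either gene on any day, whereas Mrps18c and Mrps33 overlapped on day 1 and lay apart on days 4 and 7. At the foot of the small subunit were Mrps10, with 10.6 to 17.9 TPM over the 6 libraries, and Mrps30, with 11.1 to 14.2 TPM, whose ranges overlapped.

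The order of levels changed little. Across the 78 genes, the log2 mean of day 1 and that of day 4 had a Pearson r of 0.935 and a Spearman rho of 0.94, and days 4 and 7 had 0.989 and 0.985. These are descriptions across genes, which share their libraries and are not independent replicates.

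**Figure D1:**
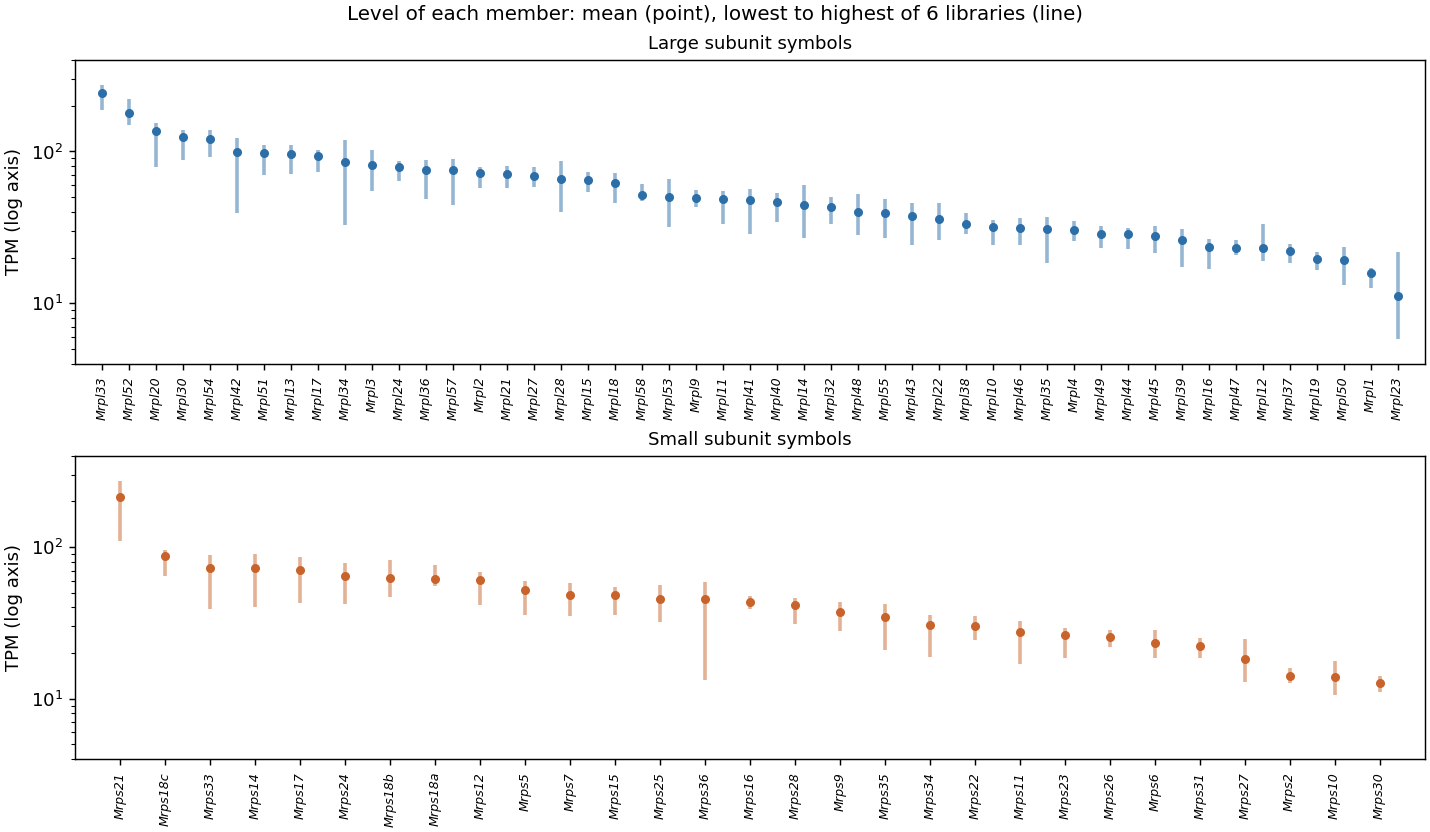
Level of each gene in TPM (log axis), with the mean over 6 libraries as a point and the lowest to highest library as a line, in order of the mean for large subunit symbols (top) and small subunit symbols (bottom). Levels run from Mrpl33 at a mean of 244 TPM to Mrpl23 at 11.1 TPM, with Mrps21 at 213 TPM far above the other small subunit symbols.

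The lowest large subunit members were Mrpl1, at 12.6 to 17.1 TPM, and Mrpl23, which holds the lowest single value of all members. Mrpl23, whose bacterial counterpart sits at the exit of the peptide tunnel, was at 11.5 and 21.8 TPM on day 1, 10.8 and 6.91 on day 4 and 9.87 and 5.78 on day 7. Its processed copy Mrpl23-ps1, one of the pseudogene symbols set aside, was at 120 and 83.4, then 141 and 138, then 122 and 129 TPM. Of the 31-base words of this copy, 94.6% are also in Mrpl23, so reads of one may have been counted for the other and the level of Mrpl23 is uncertain. The sum of both was 132 and 105 TPM on day 1, 151 and 145 on day 4 and 131 and 134 on day 7. Of the other pseudogene symbols, Mrps36-ps2 reached 0.594 TPM at most, the nearest value below the threshold, and Mrpl48-ps, Mrps36-ps1 and Mrps36-ps3 were listed at 0 in every library.

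As deposited, the members together made up a near constant share of the RNA on days 4 and 7 and a smaller one on day 1, but this order ended when the satellite-like models were left out. Summed TPM of the large subunit genes was 2890 and 2239 on day 1, 3144 and 3159 on day 4 and 3178 and 3099 on day 7. That of the small subunit genes was 1309 and 994 on day 1, 1541 and 1549 on day 4 and 1526 and 1517 on day 7. For both subunits, replicate 3 of day 1 was the lowest library, replicate 2 of day 1 was the next, and no day 1 sum overlapped with a later one. Rescaled without the satellite-like models, the sums were 3520 and 3061 on day 1 against 3124 to 3202 later for the large subunit, and 1595 and 1359 against 1530 to 1561 for the small subunit. On that scale replicate 2 of day 1 lay above every later library and replicate 3 below every one.

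**Figure D2:**
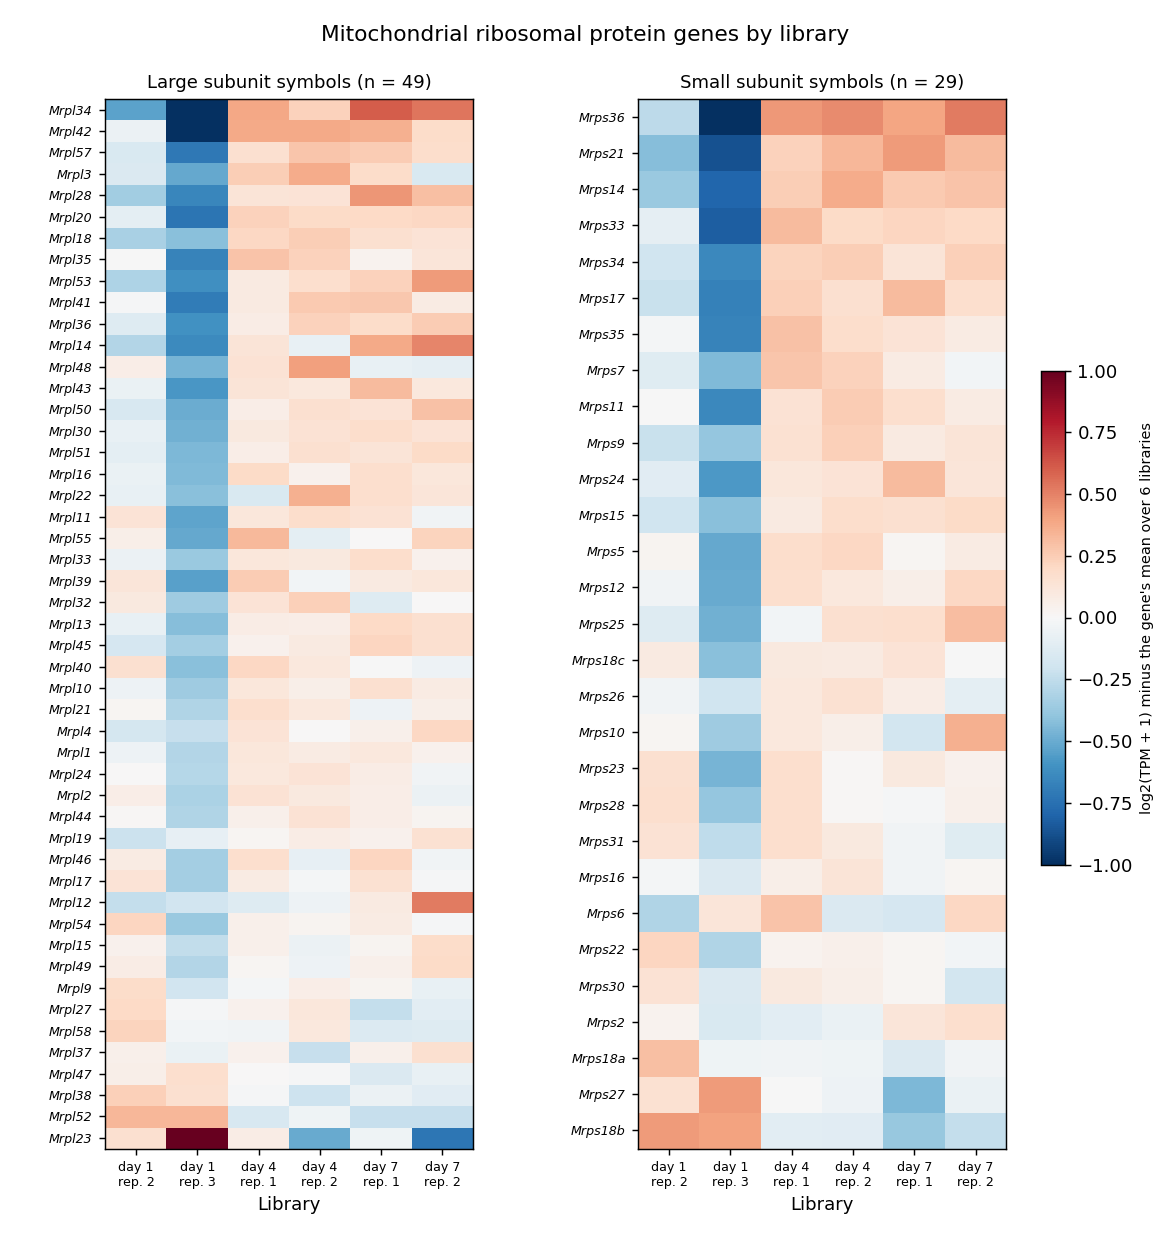
Each gene's log2(TPM + 1) minus its own mean over the 6 libraries, with colour limits at -1 and 1, for 49 large subunit and 29 small subunit symbols in order of the change from day 1 to day 4. The column of day 1 replicate 3 is blue for most genes, and Mrps18b, Mrps27, Mrpl52 and Mrpl23 at the foot are red on day 1.

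From day 1 to day 4, 15 members rose and 2 fell by limma's moderated test on log2(TPM + 1) with Benjamini-Hochberg adjustment over the 14373 genes tested. Of the large subunit genes 7 rose, 1 fell and 41 did not pass, with a median log2 change of 0.32; of the small subunit genes 8 rose, 1 fell and 20 did not pass, with a median of 0.37. Over all genes tested the test called 25% higher and 11.6% lower, and the median change was 0.11. The members called higher were thus 19.2% of all members and those called lower 2.56%, both below the share over all genes. At an unadjusted p under 0.05 there were 33 members (42.3%), against 48.3% of all genes, and the changes of all 78 ran from -0.81 to 1.36.

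All 4 later libraries lay above both day 1 libraries for 25 large and 14 small subunit genes, below them for 4 and 2, and overlapped for 20 and 13. The same pattern over all genes was 35.8% higher, 24% lower and 40.2% overlapping. With the satellite-like models taken out and TPM rescaled, 14 members lay above in all 4 later libraries and 19 lay below, against 21.9% and 43.6% of all genes.

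The direction of the group depended on the scaling, which moved the median of all genes from 0.11 as deposited to -0.02 under median-ratio scaling and to -0.21 after rescaling without the satellite-like models. Under median-ratio scaling 7 members rose and 3 fell, with medians of 0.17 and 0.22 for the large and small subunit, and 19.3% and 16.2% of all genes were called in the 2 directions. Without the satellite-like models 3 members rose and 9 fell, with medians of -0.03 and 0.02, and 14.3% and 23.6% of all genes were called. Relative to the all-gene median, the large subunit genes were higher by 0.21, 0.19 and 0.17 and the small subunit genes by 0.26, 0.25 and 0.23 in the 3 scalings. That offset was smaller than for 84 genes of cytosolic ribosomal proteins, at 0.71, 0.69 and 0.67, and for 79 nuclear genes of respiratory chain subunits, at 0.64, 0.63 and 0.60, and none of these differences between lists was tested.

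**Figure D3:**
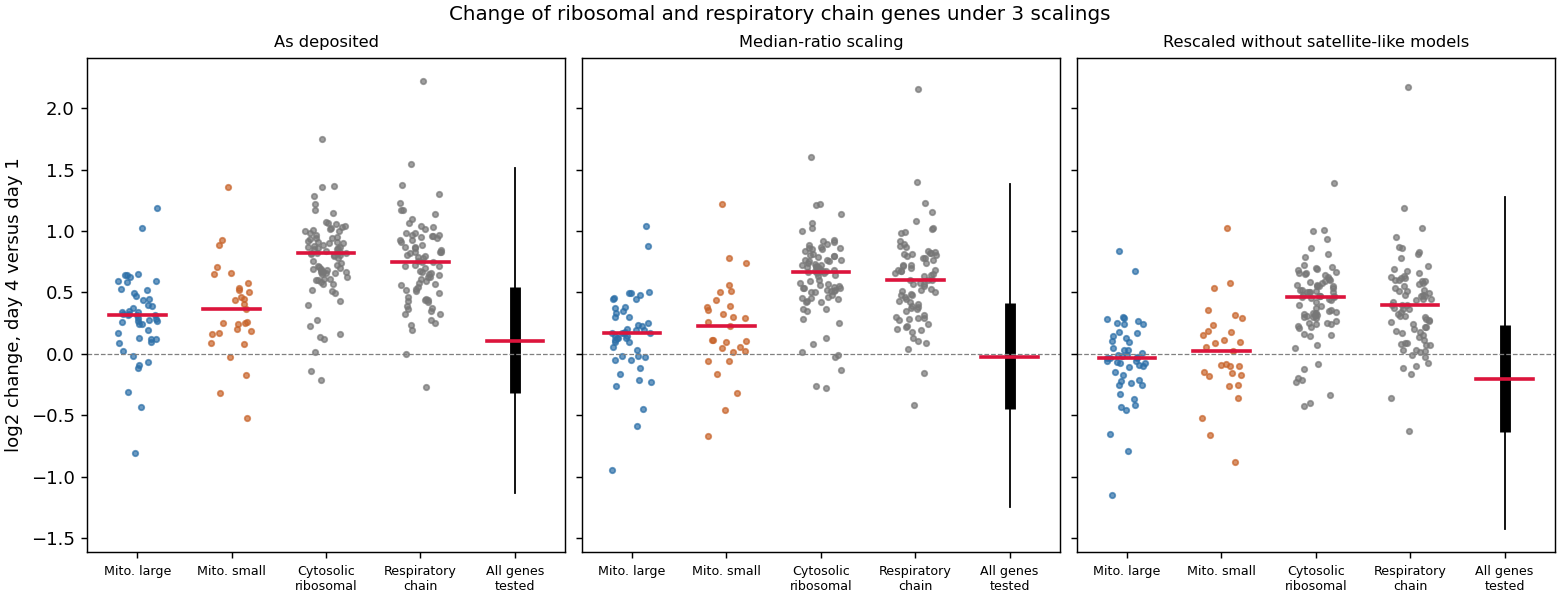
Log2 change from day 1 to day 4 for each gene of 4 groups (points) and for all genes tested (thin line 5% to 95%, thick line 25% to 75%) under 3 scalings, with medians in red. The medians of the mitochondrial large and small subunit genes are 0.32 and 0.37 as deposited and -0.03 and 0.02 in the right panel, where the median of all genes is -0.21.

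The 2 libraries of day 1 were not alike for these genes. Replicate 3 was lower than replicate 2 in 45 of 49 large subunit and 27 of 29 small subunit genes, with median differences of -0.35 and -0.42 on the log2 scale, while 49.3% of all genes were lower. Rescaled without the satellite-like models, 65 of the 78 members were still lower and the median difference was -0.21. The same rescaling moved all genes too, from 7085 lower to 5084, and their median difference from 0.00 to 0.15. Between the libraries of a later day, the median absolute difference over members was 0.08 on day 4 and 0.11 on day 7. Cytosolic ribosomal protein genes were lower in the same library in 83 of 84 cases, with a median of -0.51, and respiratory chain genes in 73 of 79, with a median of -0.47.

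Without day 1 replicate 3, 16 members were called higher and 3 lower on day 4, and the members' median was 0.16 against 0.11 over all genes. Without day 1 replicate 2, 54 were called higher and 3 lower, and the median was 0.53 against 0.12. All genes were called higher in 25.7% and 33% of cases and lower in 10.3% and 19.9%. A fit without day 4 replicate 1 called 1 member, and so did a fit without day 4 replicate 2, where 16.1% and 15.3% of all genes were called.

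**Figure D4:**
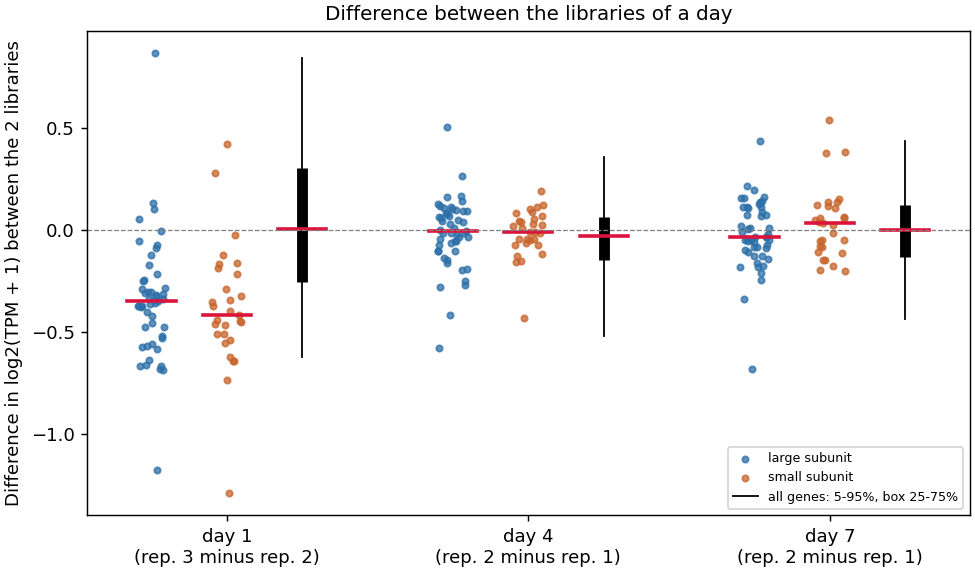
Difference in log2(TPM + 1) between the 2 libraries of each day for large and small subunit genes (points) and all genes tested (lines), with medians in red. On day 1 the medians are -0.35 and -0.42 while that of all genes is at 0, and on days 4 and 7 all medians lie within 0.04 of 0.

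5 members were called with the same direction under all 3 scalings from day 1 to day 4: Mrpl34, Mrps14 and Mrps21 rose, and Mrps18b and Mrpl52 fell. They make up 3.85% and 2.56% of the members, against 14.3% and 11.5% of all genes called higher and lower in all 3 scalings.

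Mrpl34 (chr8:71464959-71465747, plus strand, GRCm38), a large subunit protein with a bacterial counterpart, was at 53.5 and 33.0 TPM on day 1, 103 and 91.6 on day 4 and 120 and 113 on day 7. Every later library lay above both of day 1. The log2 change from day 1 to day 4 was 1.19 (SE 0.22, adjusted p = 0.00908, limma), with 1.04 under median-ratio scaling and 0.84 (adjusted p = 0.0173) without the satellite-like models. Without day 4 replicate 1 the adjusted p was 0.0636.

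Mrps14 (chr1:160195215-160202170, plus strand), a small subunit protein with a bacterial counterpart, was at 53.8 and 40.0 TPM on day 1, 83.2 and 90.6 on day 4 and 84.0 and 85.5 on day 7. Both later days lay above day 1, and their libraries overlapped with each other. Its change to day 4 was 0.89 (SE 0.15, adjusted p = 0.00722, limma), with 0.74 under median-ratio scaling, 0.54 (adjusted p = 0.0173) without the satellite-like models and an adjusted p of 0.0621 without day 4 replicate 2.

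Mrps21 (chr3:95862634-95871519, minus strand), the most abundant small subunit gene, rose by 0.93 (SE 0.17, adjusted p = 0.00848, limma) from day 1 to day 4. The change was 0.78 under median-ratio scaling and 0.58 (adjusted p = 0.0170) without the satellite-like models. Leaving out either day 4 library gave an adjusted p of 0.0541 or 0.0726. A predicted gene, Gm6181, shares 14.2% of the 31-base words of Mrps21, and it reached 0.619 TPM at most.

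Mrps18b (chr17:35910379-35916389, minus strand), a small subunit protein classed here as mitochondrial only, was at 82.1 and 80.7 TPM on day 1, 56.6 and 56.1 on day 4 and 46.6 and 51.3 on day 7. The 3 days did not overlap. It fell by 0.52 on the log2 scale to day 4 (SE 0.10, adjusted p = 0.00972, limma), and its change was -0.67 under median-ratio scaling and -0.88 (adjusted p = 0.00208) without the satellite-like models. Its adjusted p was 0.0815 without day 4 replicate 1 and 0.0885 without day 4 replicate 2. An antisense gene, Gm16279, overlaps 30.5% of its exon bases on the other strand.

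Mrpl52 (chr14:54426909-54429756, plus strand), a large subunit protein found only in mitochondria, went down with a change of -0.44 (SE 0.11, adjusted p = 0.0238, limma), with -0.58 under median-ratio scaling and -0.79 (adjusted p = 0.00288) without the satellite-like models. Its libraries, given above, did not overlap between day 1 and the later days, and its 2 day 1 libraries differed by about 1 TPM. The adjusted p was 0.193 and 0.121 without either day 4 library, and 0.0720 without either day 7 library.

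**Figure D5:**
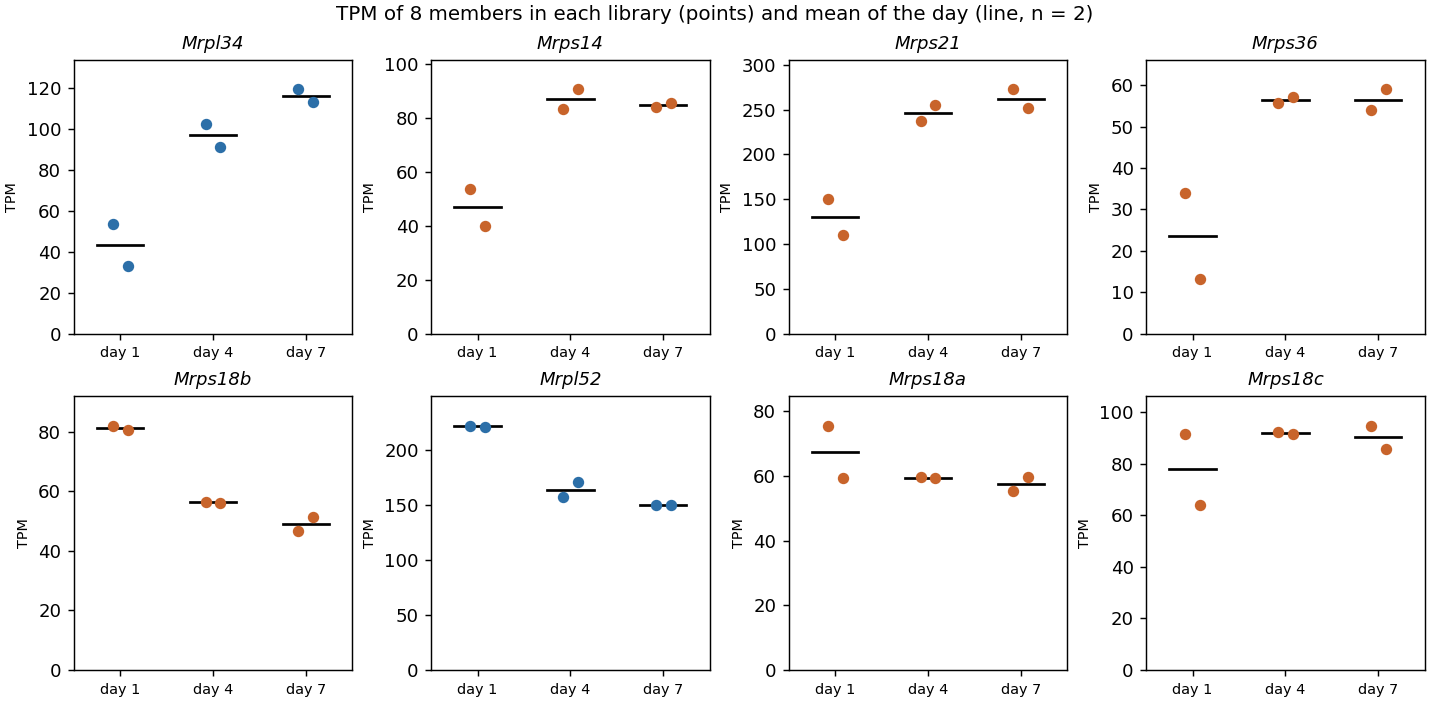
TPM of 8 genes in each library (points, blue for large and orange for small subunit symbols) with the mean of the 2 libraries of a day (line), each axis starting at 0. Mrpl34, Mrps14, Mrps21 and Mrps36 are lower on day 1, Mrps18b and Mrpl52 are higher on day 1, and Mrps18a and Mrps18c overlap between days.

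The promoters of these 5 genes are shown because they are the members called in the same direction under all 3 scalings from day 1 to day 4. Each run has 120 bases before the start of transcription and 30 from it, 5′ to 3′ on the gene's strand, from RefSeq windows of GRCm38.p6. Capitals mark matches to CCGGAAG or its reverse complement CTTCCGG, 1 form of the site recognised by ETS factors such as GABPA. Other forms of that site were not searched.
Mrpl34 (chr8:71464806-71464955, plus strand): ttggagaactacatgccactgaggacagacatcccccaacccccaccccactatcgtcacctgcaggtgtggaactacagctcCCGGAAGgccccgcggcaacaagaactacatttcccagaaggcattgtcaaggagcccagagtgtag
Mrps14 (chr1:160195095-160195244, plus strand): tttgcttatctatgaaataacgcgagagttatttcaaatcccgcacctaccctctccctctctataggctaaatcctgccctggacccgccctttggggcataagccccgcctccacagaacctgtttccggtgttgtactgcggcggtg
Mrps21 (chr3:95871485-95871634, minus strand): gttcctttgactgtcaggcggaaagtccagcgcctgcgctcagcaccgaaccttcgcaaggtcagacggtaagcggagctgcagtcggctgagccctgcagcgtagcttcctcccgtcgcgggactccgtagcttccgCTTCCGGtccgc
Mrps18b (chr17:35916411-35916560, minus strand): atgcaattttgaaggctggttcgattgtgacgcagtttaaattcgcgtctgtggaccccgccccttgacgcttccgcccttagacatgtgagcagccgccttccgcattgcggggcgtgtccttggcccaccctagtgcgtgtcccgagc
Mrpl52 (chr14:54426789-54426938, plus strand): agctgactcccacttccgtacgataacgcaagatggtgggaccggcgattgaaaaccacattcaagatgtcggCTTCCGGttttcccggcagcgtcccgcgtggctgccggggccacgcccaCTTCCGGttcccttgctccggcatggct
The match of Mrpl34 begins 37 bases before the start, the match of Mrps21 at base 19 from the start, and those of Mrpl52 47 bases before and at base 3. Mrps14 has no match to this string, and Mrps18b has 1 at base 44, past the end of the run shown. Genes that rose and genes that fell thus both held matches.

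Windows of 250 bases before to 50 after the start were found for 69 of the 78 members. CCGGAAG on either strand was in 26 of 69 members (37.7%), in 19.7% of the tested genes and in 9.93% of all genes with a window. By subunit it was in 15 of 43 large subunit genes and 11 of 26 small subunit genes. AAGATGGC, a core of YY1 sites, was in 12 members (17.4%), 5.15% of tested genes and 3.19% of all genes. TATAAA, the core of the TATA box, was in 5 members (7.25%), against 9.28% and 15.7%. No motif contains another, and the median GC content was 58.7% for members, 60.3% for tested genes and 52.7% for all genes. A match is a description of letters in this window, and genes with 2 starts had both windows searched.

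Other large subunit genes called higher on day 4 did not pass in every scaling. Mrpl28 (chr17:26123500-26126613) went from 49.7 and 40.1 TPM to 69.8 and 70.3, and to 86.7 and 78.5 on day 7. Mrpl57 (chr14:57826234-57829296) went from 66.1 and 44.5 TPM to 82.4 and 89.2, and then to 88.0 and 83.0. Mrpl3 (chr9:105053239-105079888) went from 71.7 and 55.2 TPM to 94.4 and 103, and then to 90.4 and 71.3. Mrpl28 and Mrpl57 did not overlap between day 1 and later, while Mrpl3 on day 7 reached down to its day 1 level. Their log2 changes to day 4 were 0.64 (SE 0.13, adjusted p = 0.0133), 0.65 (SE 0.19, adjusted p = 0.0390) and 0.64 (SE 0.17, adjusted p = 0.0323, limma). Without the satellite-like models their adjusted p values were 0.0653, 0.151 and 0.160. Mrpl28 and Mrpl3 have bacterial counterparts, and Mrpl57 does not.

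Mrpl42, named after its values were seen, was at 89.7 and 39.2 TPM on day 1, 122 and 122 on day 4 and 120 and 106 on day 7. Its later libraries all lay above day 1, but its change to day 4 of 1.02 had an SE of 0.35 and did not pass (adjusted p = 0.0635, limma).

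Mrpl53, a large subunit protein found only in mitochondria, rose by 0.59 (SE 0.14, adjusted p = 0.0210, limma), from 39.4 and 31.8 TPM to 52.2 and 55.3, with 57.7 and 66.3 on day 7. To day 4 the adjusted p was 0.0510 under median-ratio scaling and 0.137 after rescaling. It shares 88% of its exon bases with the predicted gene Gm42688 on the same strand, so the split between these genes is uncertain, and Gm42688 was at 1.64 to 2.24 TPM.

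Among small subunit symbols, Mrps36 (chr13:100735955-100744659, minus strand) had the largest change, although its protein is now known as a part of the oxoglutarate dehydrogenase complex and not of the ribosome. It was at 33.9 and 13.3 TPM on day 1, 55.6 and 57.1 on day 4 and 54.0 and 58.9 on day 7. Its day 1 libraries were far apart, and both lay below every later one. The change to day 4 was 1.36 (SE 0.38, adjusted p = 0.0350, limma), 0.72 without day 1 replicate 3 and 2.01 without day 1 replicate 2, and rescaling without the satellite-like models gave an adjusted p of 0.0627.

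Mrps17 rose by 0.65 (SE 0.16, adjusted p = 0.0266, limma), from 59.0 and 42.8 TPM to 81.4 and 77.2. Mrps34 rose by 0.66 (SE 0.16, adjusted p = 0.0244), from 26.0 and 18.8 TPM to 35.2 and 35.8. Neither overlapped between day 1 and the later days. Mrps17 has a bacterial counterpart and Mrps34 does not, and 37% of the exon bases of Mrps34 overlap Nme3 on the same strand and 63.4% overlap Mapk8ip3 on the other. After rescaling without those satellite-like models, Mrps17 had an adjusted p of 0.111 and Mrps34 one of 0.106.

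The remaining members called higher on day 4 were Mrpl14, Mrpl18, Mrps7, Mrps9 and Mrps15, all with bacterial counterparts and with log2 changes from 0.44 for Mrps15 to 0.60 for Mrpl18. Without the satellite-like models none of them was called, with adjusted p from 0.0660 for Mrpl18 to 0.424 for Mrps15 (limma). Under median-ratio scaling only Mrpl18 and Mrps9 among them passed. Of all members, 20 share at least 5% of their 31-base words with another gene, 21 overlap a gene on the other strand over at least 5% of their exon bases and 5 overlap one on the same strand.

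The calls of the 3 paralogs of the Mrps18 family depended on the scaling. As deposited, only Mrps18b passed the test. Mrps18c, the only paralog classed here with a bacterial counterpart, changed by 0.26 (SE 0.18, adjusted p = 0.292, limma) and Mrps18a by -0.17 (SE 0.14, adjusted p = 0.366). Mrps18a was at 75.5 and 59.3 TPM on day 1, 59.8 and 59.2 on day 4 and 55.3 and 59.7 on day 7, and its days overlapped. Rescaled without the satellite-like models, Mrps18a was also called lower, at -0.52 (adjusted p = 0.0131) on day 4 and -0.57 (adjusted p = 0.00794) on day 7. The differences between the paralogs' changes were not tested. In structures of the mammalian mitochondrial ribosome, the proteins of Mrps18a and Mrps30 lie in the large subunit. Mrps30 was at 14.2 and 11.4 TPM on day 1, 13.7 and 13.3 on day 4 and 12.9 and 11.1 on day 7, with a change to day 4 of 0.08 (SE 0.15, adjusted p = 0.710). With these 2 genes counted in the large subunit and Mrps36 left out, 7 of 51 large subunit genes rose and 1 fell, and 7 of 26 small subunit genes rose and 1 fell.

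2 members have known roles beside the ribosome's core. Mrpl58, a peptidyl-tRNA hydrolase built into the large subunit that releases stalled chains, was at 60.7 and 50.8 TPM on day 1, 50.4 and 55.8 on day 4 and 47.1 and 47.4 on day 7. The libraries of day 1 and day 4 overlapped, and its change to day 7 was -0.23 (SE 0.12, adjusted p = 0.180, limma). Without the satellite-like models Mrpl58 was called lower, at -0.42 (adjusted p = 0.0221) on day 4 and -0.58 (adjusted p = 0.00642) on day 7. Mrpl12, a protein of the stalk that binds translation factors, was at 19.1 and 19.9 TPM on day 1, 20.7 and 21.9 on day 4 and 24.2 and 33.0 on day 7. Its libraries lay higher on each later day without overlap, day 7 replicate 2 stood above the rest, and the change from day 1 to day 7 was 0.52 (SE 0.16, adjusted p = 0.0446), with an adjusted p of 0.209 without that library and 0.433 after rescaling.

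From day 4 to day 7 no member was called, where 0.306% of all genes were called higher and 0.16% lower, 67 genes or 0.466% in all. Median log2 changes were 0.00 for the large and -0.05 for the small subunit, against -0.05 over all genes. At an unadjusted p under 0.05 there were 2 members (2.56%), both of the large subunit, against 11.9% of all genes, and limma was the one tool run. The changes of single genes ran from -0.36 to 0.41, the latter for Mrpl14, which was at 34.6 and 27.0 TPM on day 1, 46.6 and 40.5 on day 4 and 55.8 and 60.3 on day 7. Its days did not overlap, and the adjusted p for day 7 against day 4 was 0.366.

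Day 7 against day 1 shares its day 1 libraries with the comparison above, so the 2 are set side by side only. Here 11 large subunit genes rose and 1 fell, with a median of 0.32, and 9 small subunit genes rose and 2 fell, with a median of 0.29. The median of all genes was 0.04, and 24.7% were called higher and 16.8% lower. Members called were 25.6% higher, close to the share over all genes, and 3.85% lower, below it. Calls held under all 3 scalings for 9 members, with Mrpl14, Mrpl28, Mrpl34, Mrpl53, Mrps14 and Mrps21 higher and Mrpl52, Mrps18b and Mrps27 lower, while 15.2% and 16.7% of all genes held. Median-ratio scaling gave 14 members higher and 4 lower, against 22% and 19.7% of all genes. Under the rescaling without the satellite-like models 6 members rose and 10 fell, against 15.2% and 31.6% of all genes. Mrpl23, whose level is uncertain, was among those 10, at -1.32 (adjusted p = 0.0455, limma). As deposited its change to day 7 was -0.98 (SE 0.37, adjusted p = 0.0794) and did not pass. Nor did its change to day 4 of -0.81 (SE 0.37, adjusted p = 0.137).

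The largest change on day 7 was that of Mrpl34, at 1.45 (SE 0.22, adjusted p = 0.00380, limma), next to 1.19 on day 4. Mrps21 was at 1.02 (SE 0.17, adjusted p = 0.00526) next to 0.93, and Mrps14 at 0.85 (SE 0.15, adjusted p = 0.00730) next to 0.89. For Mrpl28 and Mrpl14 the changes were 0.87 (SE 0.13, adjusted p = 0.00374) and 0.90 (SE 0.15, adjusted p = 0.00533), next to 0.64 and 0.49. Mrps18b and Mrpl52 were at -0.72 (SE 0.10, adjusted p = 0.00256) and -0.56 (SE 0.11, adjusted p = 0.00907), next to -0.52 and -0.44. None of the differences between the days 4 and 7 passed.

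Members called higher on day 7 and not on day 4 were, beside Mrpl12, Mrpl13, Mrpl36, Mrpl45, Mrpl50, Mrps24 and Mrps25. Their changes to day 7 ran from 0.43 to 0.59, next to 0.32 to 0.52 on day 4. Without the satellite-like models none of them was called, with adjusted p from 0.188 for Mrpl36 to 0.523 for Mrpl13 (limma). Under median-ratio scaling only Mrpl45 and Mrpl50 among them passed.

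Mrps27, a small subunit protein found only in mitochondria, was at 20.2 and 24.7 TPM on day 1, 18.0 and 17.4 on day 4 and 13.0 and 17.2 on day 7. Both day 1 libraries lay above all later ones. It fell by 0.55 on the log2 scale to day 7 (SE 0.17, adjusted p = 0.0445, limma), and by 0.89 (adjusted p = 0.0168) once the satellite-like models were left out. Of 6 fits that each left out 1 library, its call as deposited held in 1, the fit without day 1 replicate 2. In the other fits the adjusted p was 0.126 without day 1 replicate 3, 0.226 without day 7 replicate 1, and 0.0567 to 0.0856 without day 7 replicate 2 or either day 4 library. The transcript 6430562O15Rik overlaps 24.2% of its exon bases on the other strand.

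Genes whose proteins were classed as having a bacterial counterpart numbered 46, and those classed as mitochondrial only 31. The second class holds Mrps18a and Mrps18b, although they are paralogs of Mrps18c in the first, so the split is not one of ancestry. From day 1 to day 4, 11 of the first kind rose (23.9%) and none fell as deposited, with a median of 0.33, and 3 of the second kind rose (9.68%) and 2 fell (6.45%), with a median of 0.25, beside 25% and 11.6% of all genes. Median-ratio scaling gave 6 (13%) and 0 for the first kind and 0 and 3 (9.68%) for the second, beside 19.3% and 16.2% of all genes. Without the satellite-like models 3 of the first kind rose (6.52%) and 2, Mrpl27 and Mrpl47, fell (4.35%). Of the second kind none rose and 7 fell (22.6%), beside 14.3% higher and 23.6% lower over all genes, so the share that fell was near that of all genes. Among those 7 were Mrps18a, Mrps18b and Mrpl58. The difference between these classes was not tested.

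Related genes of the same system were counted in the same fit for day 4 against day 1, where 25% of all genes rose and 11.6% fell. Values are as deposited unless stated. Of 5 ribosome proteins under other symbols 1 rose, the small subunit GTPase Dap3, with a change of 0.39 (SE 0.12, adjusted p = 0.0471, limma). Of 28 assembly and RNA factors 4 rose and 1 fell, with a median of 0.00; Trmt2b, an RNA methyltransferase, rose by 1.14 and Rbfa, which acts in small subunit maturation, by 0.73, and C1qbp, a matrix protein needed for mitochondrial translation, changed by -0.42. Of 17 translation factors 1 rose, the elongation factor Tufm, by 0.36. Of 20 genes for charging mitochondrial tRNAs 4 rose and none fell, among them Gatb, a subunit of the amidotransferase that completes glutaminyl-tRNA, at 0.70. Of these 4 lists none had a higher share called than all genes, in either direction. Without the satellite-like models, where 14.3% of all genes rose and 23.6% fell, none of the 5 and none of the 17 rose, 3 of the 17 fell, 2 of the 28 rose and 7 fell, and 1 of the 20 rose. Trmt2b, Rbfa and C1qbp were still called there, and Dap3, Tufm and Gatb were not. Under median-ratio scaling the counts of higher and lower were 0 and 0 for the ribosome proteins, 3 and 3 for assembly, 0 and 0 for translation factors and 2 and 0 for tRNA charging.

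Of 11 regulators of mitochondrial biogenesis 2 rose and 2 fell (18.2% each). Tfam, which packs and transcribes mitochondrial DNA, rose by 0.58 and its partner Tfb2m by 0.50, while Myc changed by -1.11 and Gabpb1, a subunit of the ETS factor named above, by -0.59. Median-ratio scaling gave 1 higher and 2 lower, and rescaling without the satellite-like models gave 0 higher and 6 lower, with Myc and Gabpb1 but neither Tfam nor Tfb2m among the calls. Of the 13 messenger RNAs made inside mitochondria, which this ribosome translates, 4 rose and none fell, with a median of 0.22, led by mt-Co1 at 1.36 and mt-Co3 at 1.17. Their summed TPM was 6679 and 5141 on day 1, 11776 and 12153 on day 4 and 13624 and 14046 on day 7, so the later libraries lay above day 1 without overlap. Rescaled without the satellite-like models, the sums were 8137 and 7028 on day 1 and 11868 to 14160 later, again without overlap. There and under median-ratio scaling 3 rose, mt-Co1 and mt-Co3 among them, and 1 fell. The median change of these 13 RNAs to day 4 was -0.14 after the rescaling, beside -0.21 over all genes. With median ratios it was 0.07, beside -0.02. As deposited, the highest single RNA held 2981 of 6679 TPM in day 1 replicate 2 and 6118 of 11776 in day 4 replicate 1. The higher sums therefore do not describe the typical RNA of this list. The mitochondrial ribosomal RNAs were not analysed here.

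Cytosolic ribosomal protein genes rose in 65 of 84 cases with none falling and a median of 0.82, and respiratory chain genes in 54 of 79 with none falling and a median of 0.75. Under median-ratio scaling 41 and 36 rose, and without the satellite-like models 35 and 24, with 1 respiratory chain gene falling in each. Markers of other cell types moved in the same comparison. Those of macrophages were called higher in 10 of 12 cases, of proliferation in 8 of 8, of stellate cells in 8 of 9 tested, of mesothelial cells in 6 of 6 and of cholangiocytes in 2 of 3. Of 8 endothelial markers 4 were higher and 2 lower, and of 4 dendritic cell markers 1 was higher and 3 lower. Hepatocyte markers were lower in 4 of 5, T and NK cell markers in 2 of 5, and of 2 B cell markers 1 was higher and 1 lower. Without the satellite-like models macrophage markers were higher in 9 and lower in 1, and endothelial markers higher in 3 and lower in 3. There proliferation and stellate markers each rose in 7, mesothelial markers rose in 5 and hepatocyte markers fell in 5. Under median-ratio scaling proliferation markers rose in 7, mesothelial markers in 5, and endothelial markers rose in 4 and fell in 3. The other marker counts stayed as deposited. The part of these shifts in the changes of the mitochondrial ribosomal protein genes was not tested.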

How the data were processed

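The authors deposited TPM, 1 value per gene symbol and library, and the tools named in the submitters' processing notes are StringTie 1.3.3b, HISAT2 2.0.5 and Trimmomatic, on mm10 and GRCm38; for their roles, the annotation and any use of strand, a statement was not given in the sources used here. Per the labels' protocols, libraries were stranded and depleted of ribosomal RNA. TPM keeps no depth, so no counting error could be given. A gene was tested if 2 or more of the 6 libraries reached 1 TPM, on log2(TPM + 1), which understates changes of low genes, with limma 3.58.1 in R 4.3.3 (day as a factor, trended and robust variances, 3 residual degrees of freedom), and calls are at an adjusted p under 0.05. The fit was also run on simulated data with few changed genes and independent normal noise. The only condition set there was on the mean estimated change, so that run does not bear on the calls given here. Satellite-like models share at least 10% of their 20-base words with Gm10800. Positions and overlaps come from GENCODE M21 (35880 of 35999 symbols matched), promoters from RefSeq. Members and gene lists were chosen with earlier results of these data known. Named members were the 4 called genes with the largest non-overlapping change per direction, comparison and subunit, the 3 highest and 2 lowest by mean TPM, the Mrps18 family, Mrps30, Mrps36, Mrpl12 and Mrpl58; of related lists, the 2 called genes with the largest change per direction. A gene taken by this rule is not reported here. Other deposited lists of gene types and glycolysis genes were not used. The labels name no batch. Figures were drawn with matplotlib 3.10.9.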

Additional observations from a re-analysis of the deposited data

How the results depend on the processing

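Counts below are large higher, large lower, small higher and small lower, for day 4 against day 1 and then day 7 against day 1; those reported are 7, 1, 8, 1 and 11, 1, 9, 2. Median-ratio scaling gave 3, 2, 4, 1 and 7, 2, 7, 2. Rescaling without the satellite-like models gave 1, 6, 2, 3 and 4, 7, 2, 3, with medians of -0.03, 0.02, -0.03 and -0.06. A fit of only the days compared gave 4, 0, 3, 1 and 5, 1, 3, 1, no filter on low values 4, 1, 3, 1 and 6, 1, 5, 1, and plain variances 5, 1, 8, 1 and 7, 1, 7, 1. A test against a minimum change of 1 gave 0 for all. Pseudocounts of 0.1 and 0.5 changed no count. The replicate block gave 5, 2, 6, 1 and 8, 2, 6, 2, with medians of 0.13, 0.19, 0.10 and 0.13, and this fit has 1 residual degree of freedom. The labels do not say that equal replicate numbers pair samples. Differences between replicates 1 and 2 on days 4 and 7 correlated at 0.00423 over genes. That value leaves out day 1 and cannot show whether libraries shared a source. Leaving out each library in turn, where a lone sample is assumed to vary like the other days, gave 0 to 34, 0 to 2, 0 to 20 and 0 to 2 for day 4, and 2 to 34, 0 to 3, 0 to 19 and 1 to 2 for day 7, with medians of 0.15 to 0.49, 0.17 to 0.55, 0.12 to 0.48 and 0.13 to 0.50. Day 7 against day 4 gave 0 members in every fit of this kind. All-gene shares called are given above for the scalings and for some of the fits that leave out 1 library. For the other fits no all-gene share stands beside the counts. Shifts in those counts can therefore not be read as particular to the members. The cause of these shifts was not tested.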
